A study of Mus musculus with 4 samples.

Results

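The genes described here are 10 genes for the core proteins of matrix and cell surface proteoglycans, chosen by symbol: Acan, Vcan, Bgn, Dcn, Lum, Fmod, Sdc1, Sdc2, Sdc3 and Sdc4. All 10 were among the 15768 genes of the deposited table, and all 10 passed the expression filter that left 12222 genes for testing. The list was drawn up with results of the Lkb1 knockdown in these libraries known, so that the members' difference between the siRNA groups is given as a description, without a test.

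RNA-seq was performed on JoMa 1.3, a mouse line labelled as neural crest stem cells. Control cultures (genotype label WT) received a non-targeting siRNA pool, and knockdown cultures (genotype label Lkb1 KD) received a pool against Stk11, the gene that encodes the kinase LKB1. In both groups the siRNA was used at 60 nM, cells were taken 72 h after transfection, and the medium held N2 and B27 supplements, EGF, fibroblast growth factor and chick embryo extract. Each group had 2 libraries, 1 from batch 1 and 1 from batch 2. The transfection reagent is given in the labels as either of a pair of products, without saying which culture received which. The model is a transient knockdown in 1 cell line. Nothing in the labels beyond the culture number and batch says that the cultures were independent. The p-values therefore measure the spread between these libraries, which may be technical. In fits with both batch and siRNA group as terms, the libraries leave little to estimate each gene's own spread. The p-values of those fits rest largely on a spread shared across genes.

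A proteoglycan is a core protein that carries long, negatively charged sugar chains called glycosaminoglycans. Aggrecan and versican bind hyaluronan and bear many chondroitin sulfate chains, the small leucine-rich proteoglycans sit on or near collagen fibrils, and the syndecans span the plasma membrane and bear mainly heparan sulfate. During development, versican-rich matrix is known to border the routes taken by migrating neural crest cells, and aggrecan is best known as the main proteoglycan of cartilage.

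The library totals lay between 17426719 and 19324675 gene counts. Stk11, the siRNA target, had 52.7 and 52.1 FPKM (fragments per kilobase of transcript, scaled to library size) in the control libraries of batches 1 and 2, against 36.3 and 36.9 FPKM in the Lkb1 siRNA libraries. It was lower by 31.7%, with a log2 fold change of -0.55 (SE 0.0659, adjusted p = 0.0378, edgeR quasi-likelihood test with Benjamini-Hochberg adjustment). This call was lost with library size in place of TMM scaling (adjusted p = 0.0633) and with limma on log2(FPKM + 1) (adjusted p = 0.117). Of 14 neural crest markers, 9 had at least 1 FPKM in every library, among them Snai2, Twist1 and Sox9. Ednrb was listed at 0 in 3 libraries and at 0.02 FPKM in the other, Ngfr had between 0.51 and 0.8 FPKM, and Sox10, Foxd3 and Msx2 were not analysed here.

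The core proteins spanned a wide range of transcript levels. On the FPKM scale, which allows genes to be compared per length, Bgn had the highest mean level over the 4 libraries, 252.7 ± 46.2 (SD, n = 4), and Sdc3 the lowest, 1.84 ± 0.12 (SD, n = 4). Between them came Sdc4 at 137 ± 13.6, Dcn at 89.8 ± 12.1, Sdc1 at 68.6 ± 3.49, Vcan at 50.5 ± 7.45, Sdc2 at 46.0 ± 3.76, Lum at 8.43 ± 0.664, Acan at 7.86 ± 1.84 and Fmod at 4.34 ± 1.07 FPKM (SD, n = 4 each). The libraries overlapped between Vcan and Sdc2 and between Lum and Acan, and the other neighbours in this order did not overlap. Bgn stood between the 97.3rd and the 98.2nd percentile of all listed genes by FPKM, and Acan between the 46.9th and the 56.8th. The counting error of a single library was between 0.889 and 1.13% for Bgn, between 5.68 and 7.86% for Fmod and between 7.62 and 8.14% for Sdc3.

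The siRNA groups stood apart most for Acan, Fmod and Bgn, and least for Vcan and Sdc1. The promoters of the first 3 are shown with that of Vcan, the other member of the aggrecan family here, so that genes with and without a difference can be compared at the level of sequence. They come from the RefSeq promoter table for the mouse build GRCm38.p6, which held 7 of the 10 members, the others being Dcn, Lum and Sdc2. Each runs from 250 bases before to 50 bases after the annotated start, 5′ to 3′ on the gene's strand. In the GENCODE M21 gene models, the main transcripts of Acan and Vcan start downstream of these windows, at positions 79053483 and 89742322. Capitals mark every match, on either strand, to the motifs searched.
Acan, chr7:79052976-79053275, plus strand: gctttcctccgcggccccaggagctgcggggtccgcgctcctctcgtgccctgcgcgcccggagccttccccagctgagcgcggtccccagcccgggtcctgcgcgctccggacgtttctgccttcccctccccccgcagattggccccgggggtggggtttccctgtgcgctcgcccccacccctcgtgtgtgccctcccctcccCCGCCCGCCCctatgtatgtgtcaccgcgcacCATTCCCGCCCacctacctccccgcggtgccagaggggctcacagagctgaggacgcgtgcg
Bgn, chrX:73483351-73483650, plus strand: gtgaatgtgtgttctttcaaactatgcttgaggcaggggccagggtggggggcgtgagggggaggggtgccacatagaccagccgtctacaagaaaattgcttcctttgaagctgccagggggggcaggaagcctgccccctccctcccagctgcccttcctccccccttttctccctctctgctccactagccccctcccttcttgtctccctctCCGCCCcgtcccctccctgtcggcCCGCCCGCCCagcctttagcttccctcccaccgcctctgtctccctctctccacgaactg
Fmod, chr1:134037004-134037303, plus strand: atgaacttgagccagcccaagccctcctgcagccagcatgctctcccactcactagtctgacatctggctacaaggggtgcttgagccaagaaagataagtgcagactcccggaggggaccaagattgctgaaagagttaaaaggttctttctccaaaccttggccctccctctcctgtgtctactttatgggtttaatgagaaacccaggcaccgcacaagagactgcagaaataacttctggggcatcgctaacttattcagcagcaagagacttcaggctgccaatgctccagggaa
Vcan, chr13:89742463-89742762, minus strand: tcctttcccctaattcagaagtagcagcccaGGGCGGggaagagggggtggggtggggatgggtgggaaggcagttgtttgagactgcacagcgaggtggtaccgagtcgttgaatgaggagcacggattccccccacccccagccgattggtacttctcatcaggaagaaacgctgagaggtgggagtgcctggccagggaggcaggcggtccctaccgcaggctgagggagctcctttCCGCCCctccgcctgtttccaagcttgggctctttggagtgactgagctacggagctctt

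The windows differed widely in base composition. The Acan window was 74.0% G or C with 31 CpG dinucleotides, the Vcan window 61.0% with 12, the Bgn window 63.7% with 9 and the Fmod window 51.0% with 3. Over all 32544 promoters in the table the medians were 53.0% and 7 CpGs. The GC box GGGCGG, or its reverse complement CCGCCC, was present 3 times in the Acan and Bgn windows and 2 times in that of Vcan, and was not found in that of Fmod. It was present in 35.9% of all promoters of this length. In Acan and in Bgn a pair of these matches shared 2 bases. The TEAD core GGAATG was found only in the Acan window among the 7 members, on the minus strand, where it shares 1 base with a GC box, and in 14.6% of all promoters. The letters of the TATA box (TATAAA, in 13.6% of all promoters), an AP-1 site (TGANTCA, 7.79%), a cyclic AMP response element (TGACGTCA, 1.8%), an E-box (CACGTG, 7.17%), a SOX core (AACAAT, 10.6%) and an ATF4 element (TTGCATCA, 0.867%) were in none of the 7 windows on either strand. A match is a description of the letters and not a binding site. Since the Fmod window matched none of the motifs searched, no motif could be shared by Acan, Bgn and Fmod. Nothing is read from this about genes with and without a difference.

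Counts scaled to the library total adjusted by its TMM factor (CPM) were used to compare libraries gene by gene. These factors were 0.979 and 0.998 for the control libraries of batches 1 and 2, and 1.008 and 1.014 for the Lkb1 siRNA libraries. Acan encodes aggrecan, the large chondroitin sulfate proteoglycan of cartilage and of perineuronal nets. It had 74.6 and 64.9 CPM in the control libraries of batches 1 and 2, and 46.8 and 44.7 CPM in the Lkb1 siRNA libraries. Both Lkb1 siRNA libraries lay below both control libraries. The group means were 69.8 ± 6.85 and 45.7 ± 1.49 CPM (SD, n = 2 each), a log2 difference of -0.61 (SE 0.0863) or 34.4% lower, and within batches 1 and 2 the log2 differences were -0.67 and -0.54. In a bulk sample, fewer cells of a type and less RNA per cell cannot be told apart.

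Vcan encodes versican, the hyaluronan-binding proteoglycan of embryonic and loose connective tissue. It had 432 and 523 CPM in the control libraries and 423 and 548 CPM in the Lkb1 siRNA libraries of batches 1 and 2. The siRNA groups overlapped, and the 2 libraries of batch 2 were the high ones. The log2 difference between the siRNA groups was 0.03 (SE 0.124), and its sign was opposite in the 2 batches (-0.03 and 0.07). The FPKM of Vcan relative to that of Acan was 4.46 and 6.32 in the control libraries of batches 1 and 2, and 6.77 and 9.35 in the Lkb1 siRNA libraries. This ratio was higher in the Lkb1 siRNA library than in the control library of the same batch, and also higher in batch 2 than in batch 1 within each siRNA group.

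The small leucine-rich proteoglycans had lower values after Lkb1 siRNA in both batches for all 4 members, by between 11.8 and 34.6%. Bgn encodes biglycan, which binds collagen and growth factors of the TGF-beta family. It had 599 and 656 CPM in the control libraries and 443 and 459 CPM in the Lkb1 siRNA libraries. The groups did not overlap, and the difference of 28.1% (log2 -0.48, SE 0.0705) was the largest among the members in CPM, from 627 ± 40.7 to 451 ± 10.9 (SD, n = 2 each).

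Fmod encodes fibromodulin, which regulates the assembly of collagen fibrils. Its values were 13.7 and 16.1 CPM in the controls and 9.22 and 10.2 CPM after Lkb1 siRNA, again without overlap. The log2 difference of -0.61 (SE 0.138) equalled that of Acan to 2 decimals, at a level between 162 and 310 counts per library. The FPKM of Bgn was between 54.2 and 63.9 times that of Fmod, with the controls at 58.0 and 54.2 and the Lkb1 siRNA libraries at 63.9 and 59.5. This ratio was higher in the Lkb1 siRNA library than in the control library of the same batch, and the groups did not overlap.

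Dcn encodes decorin, the closest relative of biglycan. It had 145 and 169 CPM in the controls and 120 and 139 CPM after Lkb1 siRNA. Within each batch the Lkb1 siRNA library was the lower, by 16.9% in batch 1 and 17.9% in batch 2, and the groups did not overlap. The log2 difference of -0.28 (SE 0.0958) was -0.16 without the control library of batch 2 and -0.17 without the Lkb1 siRNA library of batch 1. The FPKM of Bgn relative to Dcn was 3.09 and 2.9 in the controls and 2.75 and 2.47 after Lkb1 siRNA. Lum encodes lumican, a keratan sulfate proteoglycan that neighbours Dcn on its chromosome. Its values ran from 15.6 to 16.3 CPM in the controls and from 13.3 to 14.9 CPM after Lkb1 siRNA, a log2 difference of -0.18 (SE 0.118).

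**Figure D1:**
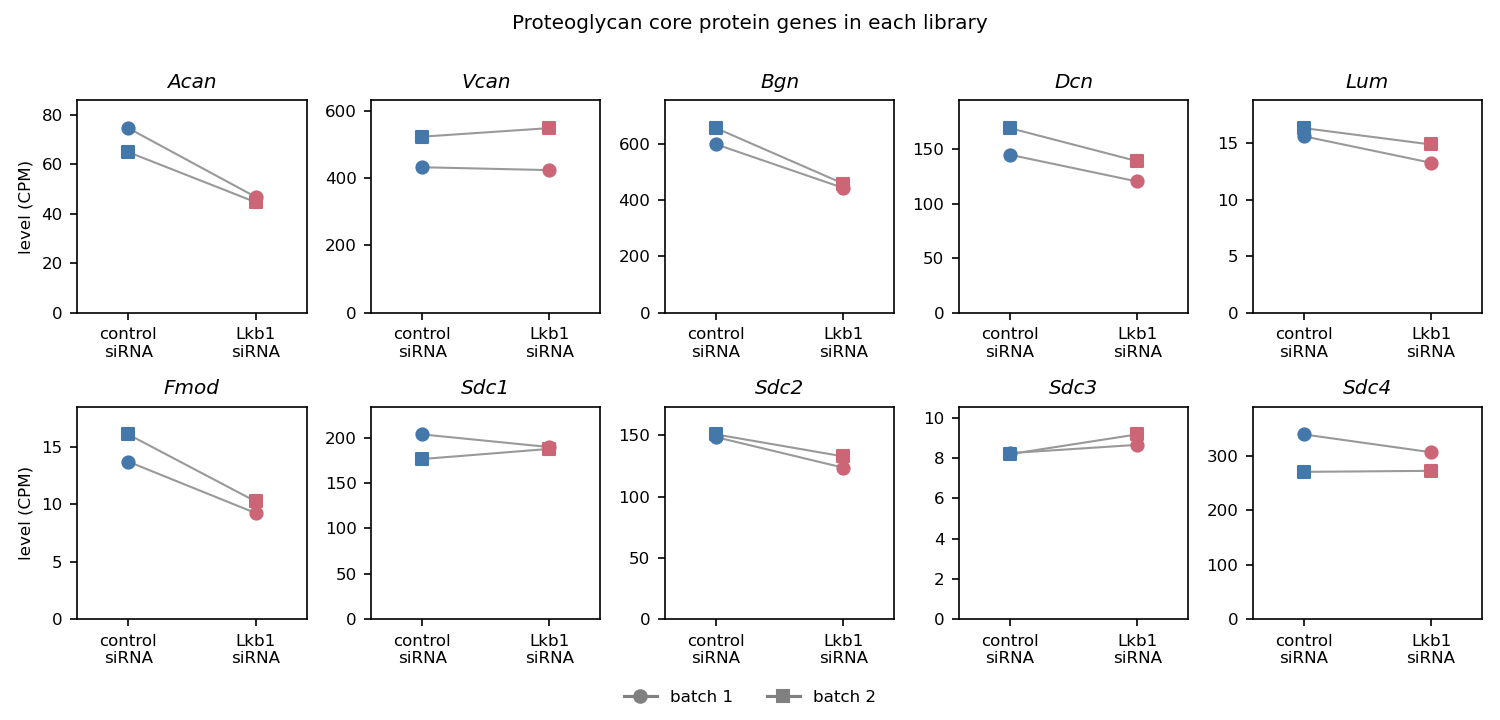
CPM of each of the 10 core protein genes in the 4 libraries, 1 panel per gene with its own axis starting at 0; points are single libraries, with siRNA group and batch marked. Acan, Bgn, Fmod, Dcn, Lum and Sdc2 are lower in the Lkb1 siRNA library of both batches, whereas Vcan and Sdc4 separate by batch.

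The syndecans showed no shared direction. Sdc2, the syndecan of mesenchymal cells, had 149 and 151 CPM in the controls and 124 and 133 CPM after Lkb1 siRNA, 14.3% lower (log2 -0.22, SE 0.0687) and without overlap of the groups. Sdc1, best known from epithelial and plasma cells, had between 177 and 204 CPM in the controls and between 188 and 190 CPM after Lkb1 siRNA. The log2 difference of Sdc1 was -0.01 (SE 0.0801), with opposite signs in the batches. Sdc3, the syndecan of the nervous system, had 8.24 and 8.19 CPM in the controls and 8.65 and 9.17 CPM after Lkb1 siRNA, a log2 difference of 0.12 (SE 0.141) at between 151 and 172 counts per library. Sdc4, a syndecan of focal adhesions, had 340.0 and 271 CPM in the controls and 307 and 273 CPM after Lkb1 siRNA. Its groups overlapped, and the log2 difference of -0.07 (SE 0.107) was smaller than its SE.

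**Figure D2:**
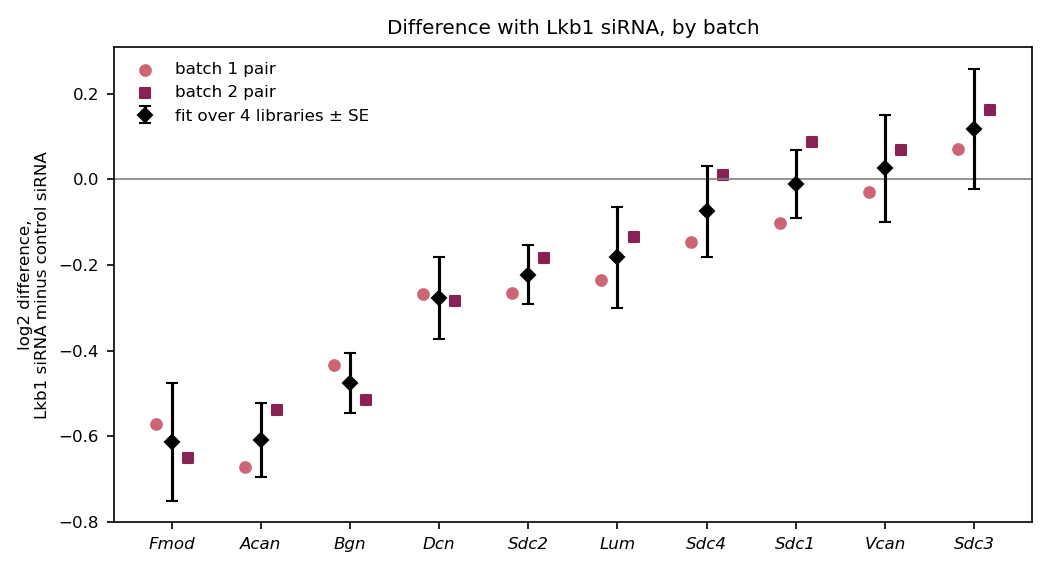
Log2 difference between Lkb1 siRNA and control siRNA for each member, with its SE, beside the values within batch 1 and batch 2. The values run from -0.61 for Acan and Fmod to 0.12 for Sdc3, and the within-batch values have opposite signs for Vcan, Sdc1 and Sdc4.

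Over the 10 members, 6 were lower in both batches, 1 was higher in both and 3 had opposite signs. The sign was the same in both batches for 67.2% of all genes tested. The median log2 difference was -0.20 over the members and 0.000494 over all 12222 genes. The libraries of the siRNA groups did not overlap for 7 of the 10, against 42.6% of genes tested. None of the members was called by edgeR without a batch term, where 0.0818% of genes were called (10 genes), and 686 genes that were higher and 676 that were lower had an unadjusted p under 0.05. With batch as a replicate block, 5 members were called lower (Acan, Bgn, Dcn, Fmod and Sdc2), against 6.99% of genes, and 0 were called higher, against 6.59% of genes. Acan and Bgn were also called lower by DESeq2, where 0.263% of genes were, and by edgeR on every gene with at least 1 count, where 0.203% were. Since the members were chosen with this contrast known, nothing is read from these counts.

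The pattern over the 4 libraries was also set beside that of other genes. Among the 9236 other genes with a mean of at least 10 CPM, the 3 whose log2 deviations from their own mean lay closest to those of Acan were Itga6, Anxa3 and Rab6b, with root mean square distances of 0.0434, 0.054 and 0.0554. Itga6, which encodes a laminin receptor subunit, had 43.1 and 34.6 CPM in the controls and 25.8 and 24.2 CPM after Lkb1 siRNA. The 3 genes closest to Bgn were Plscr2, Il1rn and Ptx3, at 0.0151, 0.0273 and 0.033. Ptx3, which encodes a secreted pentraxin, had 14.2 and 16.4 CPM in the controls and 10.5 and 10.8 CPM after Lkb1 siRNA. Acan and Bgn themselves lay 0.141 apart, Bgn and Fmod 0.0817, and Acan and Vcan 0.387. With 4 libraries and 9236 candidates some patterns lie close together, and these distances are a description.

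The contrast between batch 2 and batch 1 was not used to choose the members and could be tested, with the siRNA group as a term. Vcan and Dcn rose and Sdc4 fell, whereas the other 7 members did not pass the threshold. Vcan was 25.2% higher in batch 2 (log2 0.32, SE 0.0472, adjusted p = 2.47e-09, edgeR quasi-likelihood test), by 0.28 between the control libraries and by 0.37 between the Lkb1 siRNA libraries. Dcn was 16.2% higher (log2 0.22, SE 0.0493, adjusted p = 0.000413, edgeR), by 0.22 and 0.21. Sdc4 was lower by 15.9% (log2 -0.25, SE 0.0484, adjusted p = 1.82e-05, edgeR), with differences of -0.33 and -0.17. The batches did not overlap for Vcan, Sdc1 and Sdc4, 3 of 10 members, against 42% of genes tested. The 2 members called higher stand against 6.3% of all genes called higher, and the 1 called lower against 6.62%.

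Among the members that did not pass, Acan had a log2 batch difference of -0.14 (SE 0.062, adjusted p = 0.116, edgeR) and Sdc1 of -0.11 (SE 0.0486, adjusted p = 0.114, edgeR). For Bgn it was 0.09 (SE 0.0467, adjusted p = 0.191, edgeR). In Lum, Fmod, Sdc2 and Sdc3 the adjusted p lay between 0.26 and 0.895. Dcn lost its call with DESeq2 (adjusted p = 0.182) and Sdc4 with limma on log2(FPKM + 1) (adjusted p = 0.0528). Without the siRNA group as a term, edgeR called no member (adjusted p = 0.315 for Vcan, 0.59 for Dcn and 0.371 for Sdc4). The labels do not say in what the batches differed.

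**Figure D3:**
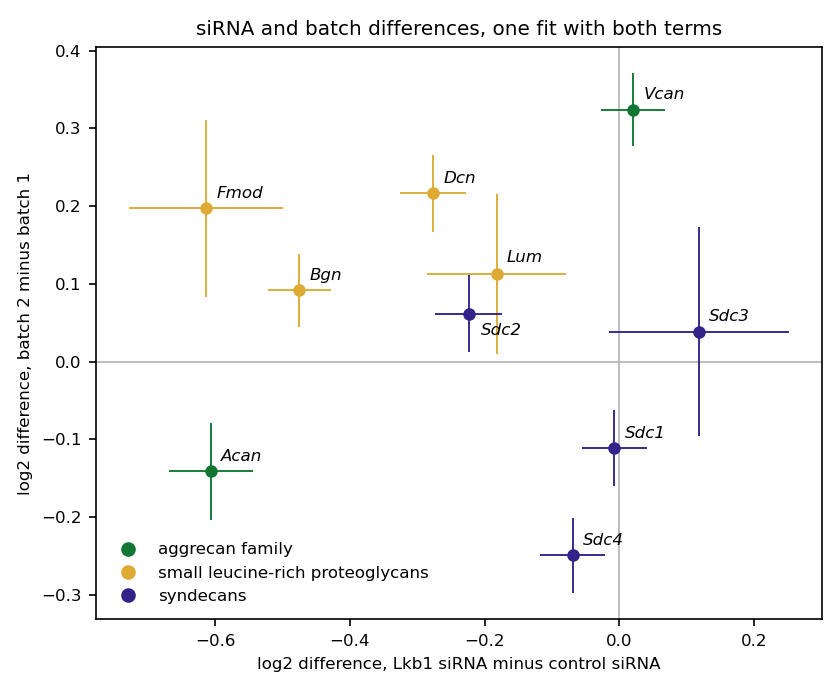
Log2 difference between the siRNA groups (horizontal) against that between batch 2 and batch 1 (vertical) for each of the 10 members. Acan, Bgn and Fmod lie farthest to the left, and Vcan and Sdc4 are the extremes on the batch axis, at 0.32 and -0.25.

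Transcript levels, as estimated by the authors' software, describe which RNA forms of the core protein genes were present. The uncertainty of assigning reads to transcripts was not tested. Versican forms differ in whether they include the long coding exons that carry the chondroitin sulfate attachment regions, named GAG-alpha (2880 bases) and GAG-beta (5217 bases) in the GENCODE M21 models. V0 has both, V1 has GAG-beta, V2 has GAG-alpha and V3 has neither. V1 made up 67.9 and 69.7% of Vcan FPKM in the control libraries of batches 1 and 2, and 68.8 and 65.1% after Lkb1 siRNA. V0 made up between 7.99 and 11.9%. V3, the form without attachment regions, made up 6.23 and 7.32% in the controls and 2.11 and 5.37% after Lkb1 siRNA. V2, the form of the adult brain, was listed at 0 in 3 libraries and made up 0.161% in the other. A predicted transcript that is not in the GENCODE models held 14.4 and 14.2% in the controls and 16.8 and 17.9% after Lkb1 siRNA. The siRNA groups overlapped in the shares of V0 and V1, and not in that of V3, lower after Lkb1 siRNA, or of the predicted transcript, higher. Groups did not overlap in the share of 34.5% of all transcripts of genes with several listed transcripts and a mean of at least 10 counts. Summed by count in place of FPKM, V1 held 65.8%, V0 13.3% and V3 2.24% on average over the 4 libraries.

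**Figure D4:**
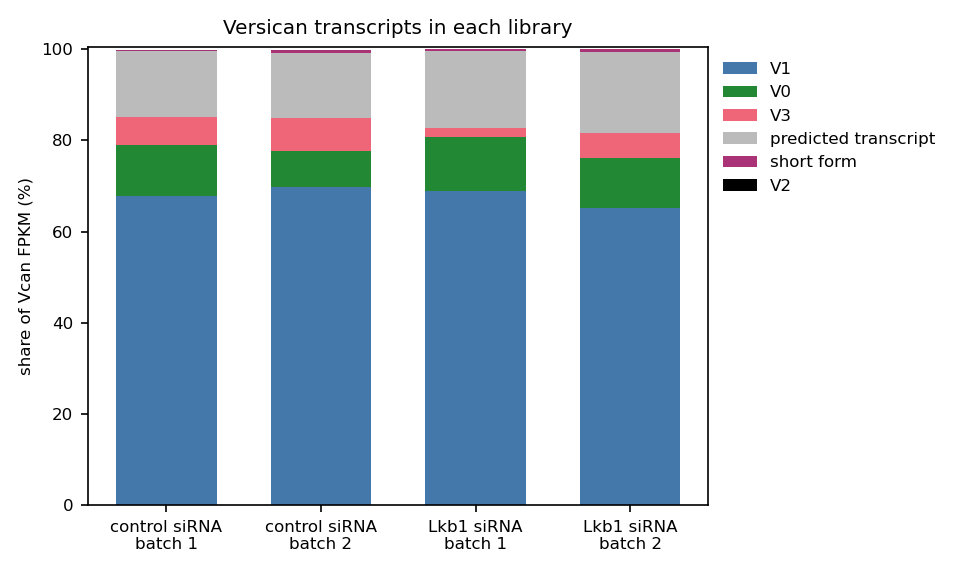
Share of Vcan FPKM, in percent, carried by each listed transcript in the 4 libraries. V1 is the major form in every library, at between 65.1 and 69.7%.

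The other members were each carried mainly by a single listed transcript. Dcn had 2 transcripts with the same coding length of 1062 bases and different starts. The one with the downstream start made up 0.912 and 0.653% of Dcn FPKM in the controls and 2.42 and 2.9% after Lkb1 siRNA, on 23.1 and 20.4 counts against 48.9 and 72.3. The groups did not overlap in this minor form, as in 34.5% of such transcripts, and total Dcn was lower after Lkb1 siRNA. The minor transcript of Acan held 6.93 and 2.71% in the controls and 2.79 and 3.72% after Lkb1 siRNA, with overlapping groups. The sources used here do not state whether counting used the strand, so reads of Acan, which overlaps Gm26633, and of Vcan, which overlaps Gm16318 and Gm4117 in the RefSeq gene table, may include reads of those genes. The same holds for Stk11, which overlaps Cbarp, and for other named genes that overlap another gene, such as Hexa, which overlaps Tmem202.

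Genes for the proteins that build, modify and cleave these molecules were followed in 7 lists of 128 genes, of which 93 were tested. No list gene was called by edgeR without the batch term, where 2 higher and 4 lower genes had an unadjusted p under 0.05. With the batch as a replicate block, 3 genes of the 93 rose and 7 fell, against 6.59% and 6.99% of all genes, and without it the adjusted p of those named below lay between 0.129 and 0.47. Over the 93, the median log2 difference between the siRNA groups was -0.04, against 0.000494 over all genes, with 59 lower and 34 higher. Log2 differences and SEs below are from the fit without the block, and adjusted p-values from edgeR with the replicate block. The lists were chosen with earlier results of these data known, and the genes named were picked by their p, so these p-values are a description.

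Among 18 genes tested for other core and link proteins, Gpc2 was called higher and Ogn and Aspn lower with the block. Gpc2, a glypican of developing neurons, had 20.1 and 25.9 CPM in the controls and 33.9 and 41.7 CPM after Lkb1 siRNA (log2 0.72, SE 0.139, adjusted p = 2.59e-17). Ogn, which encodes the small leucine-rich protein mimecan, had 277 and 372 CPM in the controls and 240.2 and 293 CPM after Lkb1 siRNA (log2 -0.28, SE 0.134, adjusted p = 9.25e-07). The groups overlapped, and leaving out a library moved the log2 difference of Ogn to -0.06 (control of batch 2), -0.15 (Lkb1 siRNA of batch 1), -0.43 (Lkb1 siRNA of batch 2) or -0.48 (control of batch 1). Aspn, which encodes asporin of the same family, fell too (log2 -0.56, SE 0.254, adjusted p = 0.0133) at between 62 and 147 counts per library. Its groups overlapped too, and the value of Aspn was -0.21 without the control library of batch 2 and -0.34 without the Lkb1 siRNA library of batch 1. Gpc2 overlaps Stag3, and Ogn and Aspn lie within Cenpp, so their reads may include reads of those genes. Tgfbr3, which encodes the TGF-beta co-receptor betaglycan, did not pass (log2 -0.12, adjusted p = 0.105).

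Among the genes that build and sulfate the chains, lists with 7, 12, 16 and 10 genes tested, 2 rose and 1 fell with the block. Over all genes, 6.59% rose and 6.99% fell, and nothing is read from these counts. Of 7 enzymes of the linkage region, through which every chain is attached to its core protein, none was called, and the nearest was B3gat3 (log2 -0.19, adjusted p = 0.111). None of 12 tested enzymes of chondroitin and dermatan sulfate was called with the block, Csgalnact2, which starts chondroitin chains, being the nearest (log2 -0.21, adjusted p = 0.0563). Of 16 tested heparan sulfate genes, Hs3st3b1, a 3-O-sulfotransferase, rose (log2 0.45, SE 0.151, adjusted p = 0.0192), from 6.12 and 6.56 CPM to 8.51 and 8.81 CPM. Glce, the epimerase that converts glucuronic to iduronic acid, fell (log2 -0.18, SE 0.0744, adjusted p = 0.0194), from 77.0 and 71.1 to 67.0 and 63.5 CPM. Among 10 tested genes of sugar and sulfate donor supply, Bpnt2, the Golgi phosphatase needed for sulfation, rose (log2 0.14, SE 0.0645, adjusted p = 0.0301), from 220.4 and 218 CPM to 239 and 245 CPM. None of 8 tested genes of hyaluronan synthesis, turnover and receptors was called, the nearest being Cemip2 (log2 -0.13, adjusted p = 0.082).

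In the list of breakdown and cleavage, 4 of 22 tested genes fell and 0 rose (6.99% and 6.59% of all genes), with 16 lower and 6 higher in all. Adamts5, which encodes a protease that cleaves aggrecan, had 22.8 and 28.1 CPM in the controls and 18.6 and 21.1 CPM after Lkb1 siRNA (log2 -0.36, SE 0.125, adjusted p = 0.000994). Without the control library of batch 2 the log2 difference of Adamts5 was -0.20. Arsb (log2 -0.21, adjusted p = 0.0005) and Hexa (log2 -0.25, adjusted p = 0.00441), which encode lysosomal enzymes, fell as well. Adamts1, which encodes a protease that cleaves versican, was not called between the siRNA groups (log2 0.04, adjusted p = 0.566). It rose between the batches, from 572 and 598 CPM in the control and Lkb1 siRNA libraries of batch 1 to 836 and 852 CPM in batch 2 (log2 0.53, SE 0.0457, adjusted p = 7.87e-27, edgeR with the siRNA group as a term).

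Over the 93 list genes, 12 rose and 2 fell in batch 2, against 6.3% and 6.62% of all genes. Besides Adamts1 these included Ogn (log2 0.36, adjusted p = 1.26e-10), Gpc2 (log2 0.33, adjusted p = 0.000839) and Sulf2, a heparan sulfate endosulfatase (log2 0.16, adjusted p = 0.0106). The 2 that fell were Hs6st1, a 6-O-sulfotransferase (log2 -0.27, adjusted p = 0.000257), and Chpf, a chondroitin polymerising factor (log2 -0.21, adjusted p = 0.00949), all in edgeR with the siRNA group as a term.

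**Figure D5:**
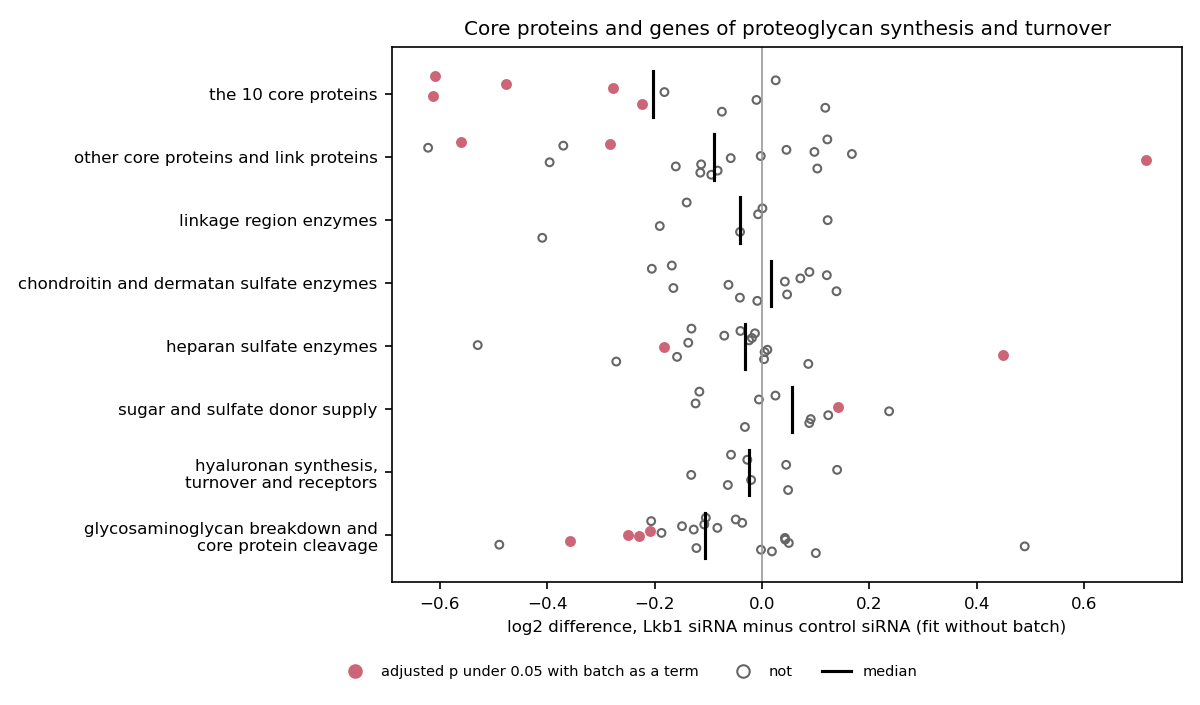
Log2 difference between Lkb1 siRNA and control siRNA, from the fit without the batch term, for the 10 core proteins and the tested genes of the 7 lists; each point is a gene, filled where the adjusted p with the batch term was under 0.05, and the bar is the median. Gpc2 lies farthest to the right at 0.72, and the breakdown and cleavage list has its median at -0.11.

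Some markers of other cell types moved with the siRNA groups and with the batches. The fibroblast markers, 8 of 10 in the table, summed to 1349 and 1628 FPKM in the controls of batches 1 and 2 and to 1170.0 and 1392 FPKM after Lkb1 siRNA. Of 7 tested, 6 were lower in both batches, 4 fell with the replicate block (6.99% of all genes did) and 6 rose in batch 2 (6.3% did). No fibroblast or smooth muscle marker was called without the block. The collagen gene Col1a1, for example, had a log2 difference of -0.35 between the siRNA groups (adjusted p = 1.36e-14 with the block and 0.319 without, edgeR) and of 0.29 between the batches (adjusted p = 5.59e-10, edgeR). The smooth muscle markers summed to 435 and 410.2 FPKM in the controls and 355 and 333 FPKM after Lkb1 siRNA. Of 5 tested, 2 fell with the block, Acta2 and Tagln (adjusted p = 0.0908 and 0.227 without it, edgeR). Smtn and Mylk had opposite signs in the batches. Des was higher after Lkb1 siRNA in both batches, at between 8 and 23 counts per library. The part of these cell types in the lower values of Bgn, Dcn, Fmod, Lum and Acan was not tested.

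Of the cartilage markers, Col2a1 and Col11a2 went the other way from Acan. The 7 of 10 markers in the table summed to 2.54 and 3.17 FPKM in the controls and 4.17 and 5.13 FPKM after Lkb1 siRNA, and 3 were tested. Comp, the third tested, had opposite signs in the batches (0.38 and -0.14), and Col9a1 and Cnmd had between 0 and 4 counts in each library. Col2a1, the cartilage collagen gene, rose from 1.35 and 1.6 FPKM to 2.23 and 2.95 FPKM. Its log2 difference was 0.78 (SE 0.172, adjusted p = 0.181) without the block, and the adjusted p was 9.88e-08 with it (edgeR). Col11a2 rose as well (log2 0.94, SE 0.205 and adjusted p = 0.168 without the block, adjusted p = 6.46e-07 with it, edgeR). Sox9, which encodes a transcription factor that drives Acan and Col2a1 in cartilage, had 12.3 and 12.2 FPKM in the controls and 14.2 and 12.9 FPKM after Lkb1 siRNA and was not called (log2 0.11, adjusted p = 0.264 with the block, edgeR). The neuron markers summed to 8.06 FPKM in both controls and to 12.03 and 8.6 FPKM after Lkb1 siRNA, and glia to between 1.97 and 3.1, macrophages to between 1.04 and 1.59 and endothelium to between 0.21 and 0.44 FPKM. No listed marker of these cell types was at 0 in every library, and their part in the members' values was not tested.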

How the data were processed

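RNA-seq was done on 4 libraries. Tools named in the submitters' processing notes, without role or order, were RSEM 1.2.8, HISAT2 2.0.4 and Bowtie2 2.2.5, and the named mouse build was GRCm39. For the annotation, the release is not given in the sources used here. The deposited tables, per the file headers, hold a read count, a normalised read count, FPKM and TPM per library. The deposited counts were expected counts estimated by the authors (between 5.73 and 5.97% not whole) and were rounded. The deposited normalised read count is a signal scaled by the authors, used only for the order of levels per length. The deposited FPKM and TPM are the authors' values relative to length and library. Doubled decimal points in 31 gene table cells and 73 transcript table cells were read as 1 point.

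Counts were tested in R 4.3.3 with edgeR 4.0.16 (TMM, minimum count 10, quasi-likelihood F-test, threshold 0.05 after Benjamini-Hochberg adjustment over 12222 genes). DESeq2 1.42.0 and limma 3.58.1 on log2(FPKM + 1) and log2(FPKM + 0.1), other scalings and filters, and leaving out each library were alternatives. The edgeR fit of the siRNA groups without the block and the batch fit were also run on simulated counts. Those counts held no batch effect where the siRNA groups were compared. The siRNA comparison with the block, DESeq2 and limma were not run on them. The labels give culture number and batch together, so the numbers pair the libraries, and deviations of same-batch libraries correlated at 0.259 across genes. SD over 2 libraries is given for group means, and counting errors cover counting alone. The members and lists were chosen with earlier results of these data known. Named are the 10 members, Stk11, up to 4 genes per list with the smallest p between the siRNA groups with the block and up to 2 between batches, and the 3 genes closest to Acan and to Bgn. A gene that the rule would name is not reported here. Marker genes named outside that rule, such as Col2a1 and Col1a1, were chosen after their values were seen.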

Additional observations from a re-analysis of the deposited data

How the results depend on the processing

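No called value of Stk11, a member or a list gene named here changed sign under the alternatives run, which did not cover the cell type markers. Between the siRNA groups, edgeR called 4 genes higher and 6 lower. The replicate block gave 806 and 854, library size in place of TMM 2 and 1, genes with at least 1 count 13 and 32, a mean of at least 5 CPM 2 and 2, DESeq2 16 and 31, and limma 0 and 0 with either pseudocount (858 and 421 at an unadjusted p under 0.05 with a pseudocount of 1). Leaving out 1 library gave between 24 and 136 higher and between 42 and 143 lower, with the lone library of a group assumed to vary like the others. Members called lower numbered 0 in the main test, 5 with the replicate block, 2 with DESeq2 and with genes of at least 1 count, and between 2 and 4 on leaving out a library, Acan and Bgn each time. Between the batches, the counts of 770 and 809 became 0 and 0 without the siRNA term (634 and 597 at an unadjusted p under 0.05, edgeR), 45 and 62 with DESeq2, 145 and 104 with limma at a pseudocount of 1, and 155 and 115 at 0.1. Members called higher there went from 2 to 0 without the term and 1 with DESeq2, and members called lower from 1 to 0 without the term and 0 with limma. The causes were not tested. The sign of Sdc1 between the siRNA groups was positive when scaled by library size (0.02) and in limma (0.03), and on leaving out a library those of Vcan (-0.17 to 0.20), Sdc1 (-0.11 to 0.10) and Sdc4 (-0.23 to 0.10) did too. By count, the mean shares were 13.3% for V0, 65.8% for V1 and 2.24% for V3, against 10.5, 67.9 and 5.26% by FPKM, and by normalised count per length Lum ranked 8 and Acan 7. With 1 library left out, the batch contrast has no residual degrees of freedom and gives values without a test.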
